A study of Homo sapiens with 8 samples.

Results

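The transcripts of 10 genes of the hypoxia response were examined in SKBR3 cells, an ERBB2-amplified line from a human breast carcinoma, with and without knockdown of the pioneer transcription factor FOXA1. The set comprised the oxygen-regulated transcription factor subunits HIF1A and EPAS1, the prolyl hydroxylases EGLN1 and EGLN3, and 6 genes known as targets of these factors (VEGFA, ADM, NDRG1, BNIP3, ANKRD37 and MGARP). They were taken by symbol from a table of 30434 genes, and all 10 passed the filter on low counts. The names were chosen with the difference between knockdown and control in this same table known, so those differences are given as descriptions, with no p-value for a member. Numbers of members that the test across all genes calls are printed beside the share or number called over all genes, and support nothing. The control group was 4 libraries of SKBR3 cells labelled wild type. The knockdown group was 4 libraries of a stable SKBR3 derivative made with lentiviruses that carried 3 short hairpin RNAs against FOXA1, kept in the same serum-containing medium. The labels name no low-oxygen treatment, do not say whether the controls received a vector, and do not say whether libraries of a group came from separate cultures. The tests below therefore measure only the spread between these libraries, which may be technical, and all 4 knockdown libraries may represent a single derived line.

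Hypoxia-inducible factors are pairs of an oxygen-regulated alpha subunit, HIF-1alpha from HIF1A or HIF-2alpha from EPAS1, and the constitutive partner ARNT. When oxygen is present, prolyl hydroxylases of the EGLN family modify the alpha subunits, which the VHL ubiquitin ligase then marks for destruction. When oxygen is scarce the alpha proteins accumulate and bind hypoxia response elements with the core ACGTG or GCGTG. EGLN1 and EGLN3 are themselves targets, and so form a feedback loop. Most of this control acts on protein, which was not measured here.

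Promoter windows from RefSeq (GRCh38.p14), each from 250 bases before to 50 bases after a transcription start, were listed for 8 of the 10 members, with 2 starts for HIF1A. None was listed for VEGFA or NDRG1. They were searched on both strands for ACGTG and GCGTG, the letters by which the factors are known to recognise their targets. The palindrome CACGTG holds ACGTG on each strand and so counts as 2 overlapping matches. Of the 8 members, 7 had at least 1 match, all of them before the start, and EGLN3 had none. The second start of HIF1A had none either, and the shares that follow are per window and not per gene. Across all 35116 windows of this length in the table, 48.4% held at least 1 match, 10.1% held 3 or more and 1.98% held 5 or more. ANKRD37 had 3 matches and BNIP3 had 6. The windows were not matched for their content of G and C, which was 69.7% for ANKRD37 and 80.7% for BNIP3. The shares therefore do not say how rare such numbers are in sequence of that content. The short stretches that hold the matches are printed 5′ to 3′ on the strand of the gene, with the matches in capitals, to show how many each window holds and how they are spaced.
BNIP3: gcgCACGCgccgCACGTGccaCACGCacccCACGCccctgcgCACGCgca
ANKRD37: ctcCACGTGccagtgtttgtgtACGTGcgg
MGARP: tggatgaaggtcgACGTGcctcctccgggc
ADM: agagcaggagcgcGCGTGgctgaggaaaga
EGLN1: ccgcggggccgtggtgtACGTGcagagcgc
EPAS1: ggggcctgccggcGCGTGcccgcccacaca
HIF1A: ttggctgagagcgGCGTGggctggggtggg
The BNIP3 stretch is chr10:131982020-131982069 (minus strand), that of ANKRD37 chr4:185396676-185396705 (plus) and that of MGARP chr4:139280245-139280274 (minus). The ADM stretch is chr11:10304959-10304988 (plus) and that of EGLN1 is chr1:231422288-231422317 (minus). The EPAS1 stretch is chr2:46297277-46297306 (plus) and that of HIF1A is chr14:61695296-61695325 (plus). In GENCODE 29 the stretches of ANKRD37, MGARP, ADM and EGLN1 lie in an annotated exon of the same gene, and those of BNIP3, EPAS1 and HIF1A lie in no exon. The forkhead core TGTTTAC, searched on both strands, was in none of the 9 member windows and in 3.42% of all windows. With a core this rare, its absence from 9 windows says nothing about the members, and sequence outside the windows was not searched. A match is a run of letters and not a measured binding site.

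**Figure D1:**
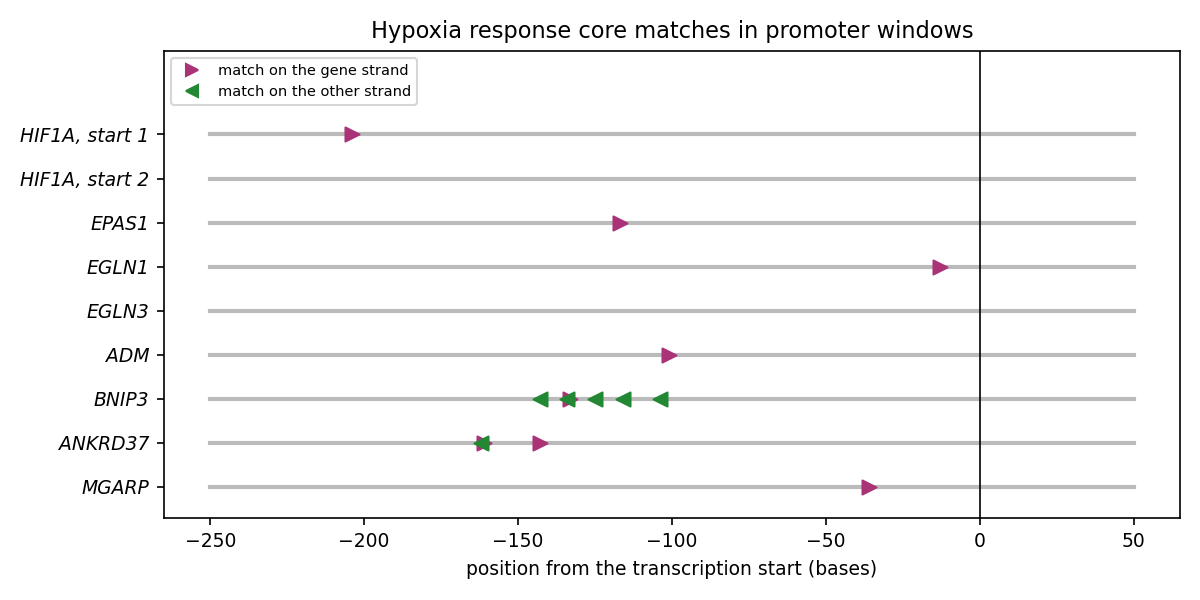
Positions of ACGTG and GCGTG matches (triangles, pointing along the strand of the match) in the promoter windows of 8 members; the horizontal axis is the distance from the transcription start in bases, and each grey line is 1 window. BNIP3 has 6 matches and ANKRD37 has 3, while EGLN3 and the second start of HIF1A have none.

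Library totals ran from 19087878 to 23786684 counts. FOXA1, the targeted gene, was left at 2.06% of its control level. Control replicate 3 stood somewhat apart: the SD over genes of the log2 difference between control libraries was 0.204 to 0.210 in its pairs and 0.163 to 0.172 in the others. The 6 markers of an ERBB2-amplified luminal line (ERBB2, GRB7, EPCAM, KRT8, KRT18 and KRT19) were all present, with a summed level of 16522 to 18424 CPM (counts per 1000000 of the TMM-scaled library size) in control and 10970 to 11844 CPM in knockdown. They did not move together: ERBB2, GRB7 and KRT19 fell (log2 fold changes -2.45, -1.54 and -1.87), while EPCAM, KRT8 and KRT18 rose (0.33, 0.31 and 0.58). Markers of a mesenchymal or basal carcinoma cell (5 of 6 listed in the table) summed to 1.14 to 1.51 CPM in control and 11.2 to 12.51 CPM in knockdown, and those of fibroblasts (5 of 6) to 5.26 to 6.97 CPM and 10.8 to 11.9 CPM. Endothelial markers (4 of 4) summed to 20.7 to 22.2 CPM and 19.7 to 22.4 CPM, of which VWF fell from a mean of 5.21 to 0.844 CPM and CDH5 rose from 16.1 to 20.05 CPM. Leukocyte markers (3 of 4) stayed under 1 CPM in every library, with PTPRC at 0 to 3 counts. Of the mesenchymal or basal markers, TP63 (2 to 4 counts in control libraries, 162 to 191 in knockdown libraries) and CDH2 (at most 1, and 33 to 56) rose, KRT5 did not pass the test (log2 fold change 0.19), and VIM and KRT14 were below the filter, with at most 11 counts. Of the fibroblast markers, COL3A1 (at most 1 count, and 90 to 104) and PDGFRB (7 to 12, and 43 to 81) rose, COL1A1 fell by 0.31 on the log2 scale, and COL1A2 and DCN had at most 3 counts. The part of any of these in the results below was not tested. In bulk RNA, fewer cells that express a gene and less RNA per cell cannot be told apart.

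Most of the members were lower in the knockdown, and 2 were higher. EPAS1, EGLN3, NDRG1 and ANKRD37 were at less than 43% of their control level, VEGFA at 53.2% and HIF1A at 80.5%. ADM was at 265% of control, and MGARP, with 0 to 2 counts in each control library, was at 81.4 CPM. EGLN1 (95.3% of control) and BNIP3 (99.7%) were nearly level. At an adjusted p under 0.05 in edgeR's quasi-likelihood test over all genes, 8 of the 10 were called, 6 lower and 2 higher, where 77.1% of the 16430 genes tested were called (37.7% lower and 39.4% higher). At least 2-fold apart and called were 6 members, 4 lower and 2 higher, beside 28.3% of all genes tested (13.4% lower and 14.9% higher). Control and knockdown libraries were fully separated in CPM for 9 of the 10, and for 71.9% of all genes tested. The median log2 fold change was -0.61 for the members and 0.02 for all genes tested, and setting MGARP to its lower bound leaves the former as it is. Because the members were chosen on this contrast, nothing is read from these counts.

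**Figure D2:**
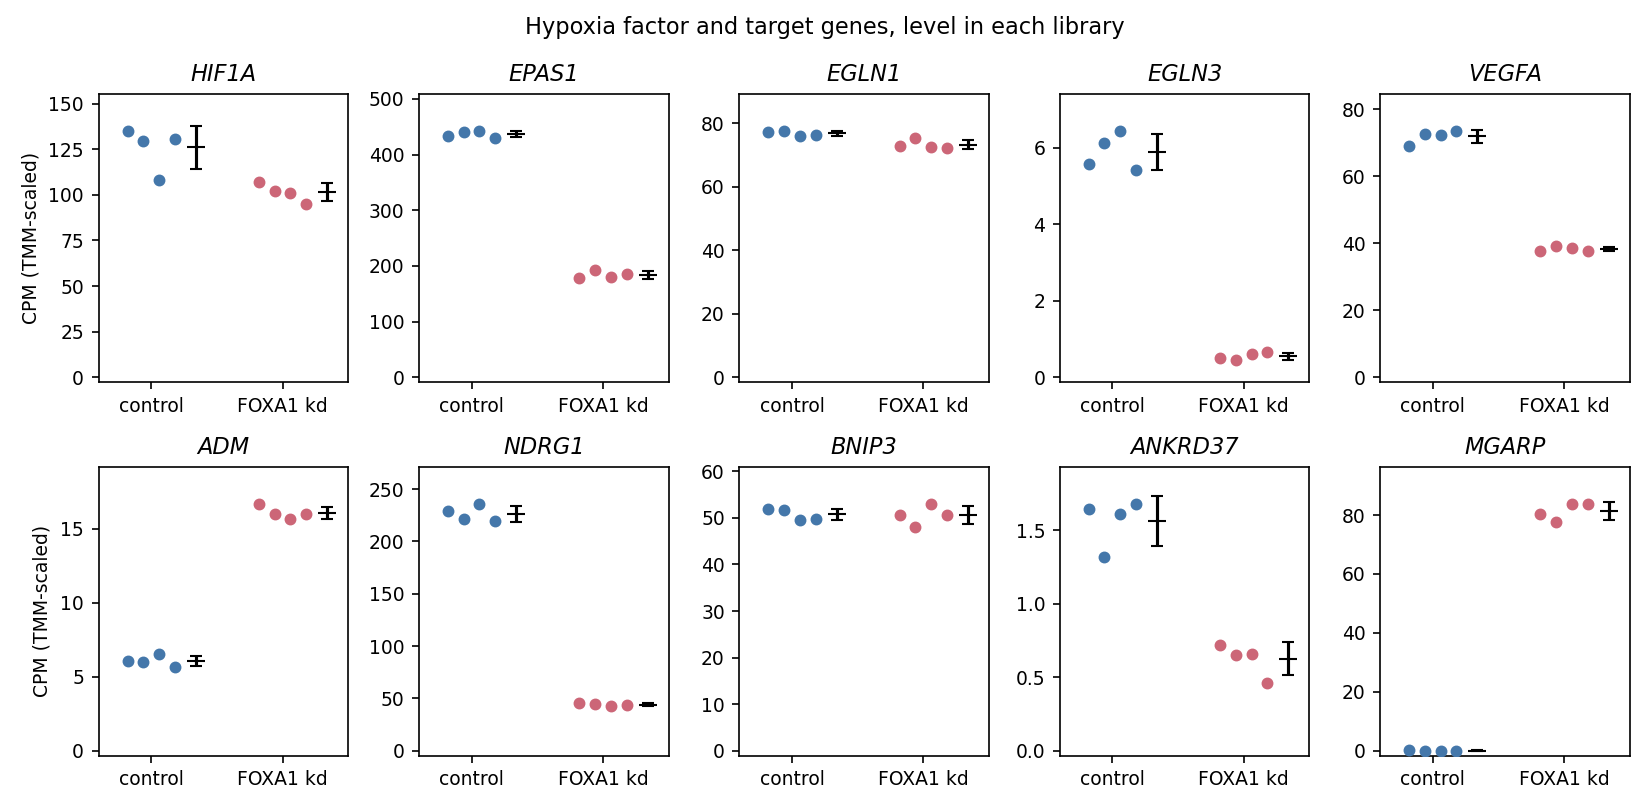
Level of each member in every library, in CPM on a linear axis from 0, with 4 control (blue) and 4 FOXA1 knockdown libraries (red); the black mark beside each group is the mean and its bars are the SD. The groups are apart for all members but BNIP3, and the gap is narrow for EGLN1 and HIF1A.

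EPAS1 encodes HIF-2alpha and was the more abundant alpha subunit transcript in control. EPAS1 (ENSG00000116016.14, chromosome 2, 46293667 to 46386703, plus strand, GENCODE 29 on GRCh38) had 433.2, 440.2, 443.1 and 430.5 CPM across the controls (replicates 1 to 4) and 177.6, 192.2, 179.5 and 185.8 CPM across the knockdowns in the same order. All 4 knockdown libraries lay far below every control library, and each group was tight. The mean went from 437 ± 5.89 to 184 ± 6.66 CPM (mean ± SD over 4 libraries each), and its log2 fold change was -1.25 (SE 0.0277).

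HIF1A encodes HIF-1alpha, the subunit present in almost all tissues, and differed far less. HIF1A (ENSG00000100644.17, chromosome 14, 61695513 to 61748259, plus strand) had 135.2, 129.6, 108.3 and 130.6 CPM in control and 107.2, 102.2, 100.8 and 95.2 CPM in knockdown. Control replicate 3 was the lowest control and lay only just above the highest knockdown library. The mean went from 126 ± 11.999 to 101 ± 4.95 CPM (mean ± SD over 4 libraries each), and its log2 fold change was -0.31 (SE 0.0802), which was -0.38 without control replicate 3. HIF1A shares 117 exonic bases with HIF1A-AS1 on the opposite strand, which averaged 0.250 counts per library. It also shares 148 of its 5151 exonic bases with ENSG00000258964 on the same strand, which averaged 9.375 counts per library. Reads from that stretch cannot be assigned with certainty. A further antisense gene at this locus, HIF1A-AS3, shares no exon with HIF1A and had a log2 fold change of 0.13 (SE 0.183, edgeR adjusted p 0.412).

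Set against each other per length of merged exon, EPAS1 and HIF1A were unequal in control and nearer to equal in knockdown. The ratio of EPAS1 to HIF1A, in CPM per kb, was 2.26, 2.40, 2.89 and 2.32 across the controls (replicates 1 to 4) and 1.17, 1.33, 1.26 and 1.38 across the knockdowns in the same order. EPAS1 exceeded HIF1A in all 8 libraries, and the ratios of the groups did not overlap. The ratio averaged 2.47 ± 0.285 in control and 1.28 ± 0.0907 in knockdown (mean ± SD over 4 libraries each). With the longest coding transcript as the length, chosen after seeing the data, the means were 2.68 ± 0.309 and 1.39 ± 0.0985. The summed level of the alpha subunit transcripts went from 84.3 ± 1.79 to 44.8 ± 1.03 CPM per kb of merged exon (mean ± SD over 4 libraries each).

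**Figure D3:**
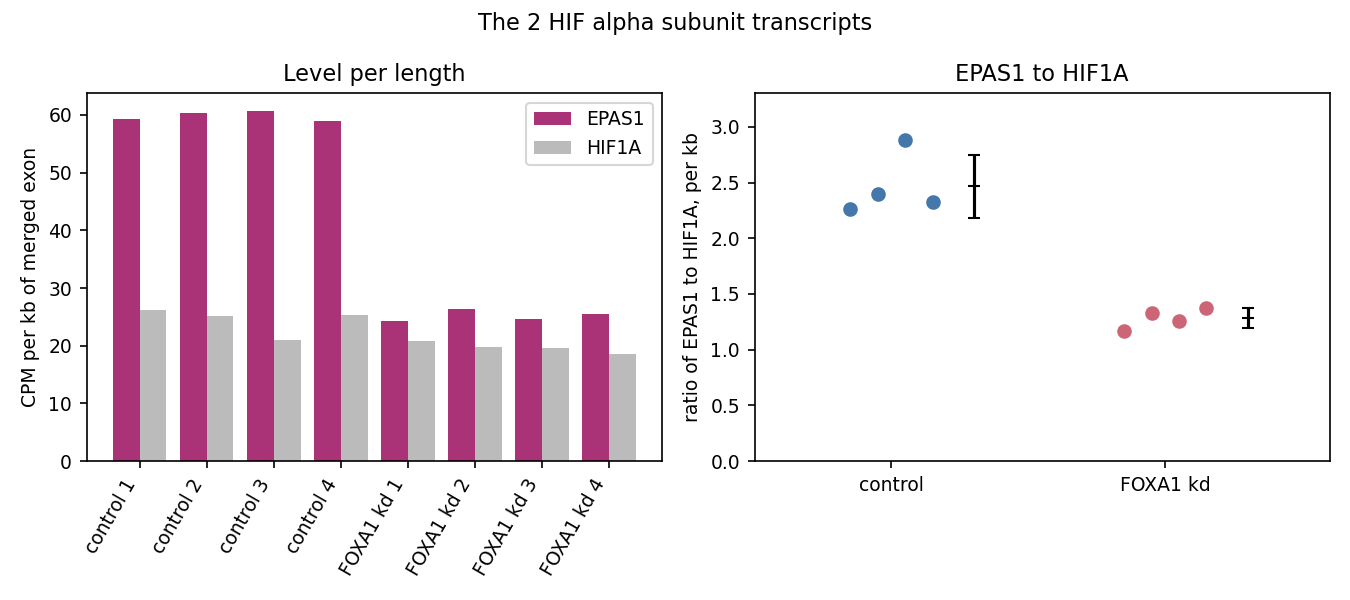
Left, level of EPAS1 (purple bars) and HIF1A (grey bars) in CPM per kb of merged exon in each of the 8 libraries; right, their ratio in each library, with the mean and SD in black. EPAS1 lies between 59.0 and 60.7 in control and between 24.3 and 26.3 in knockdown, and the ratio goes from a mean of 2.47 to 1.28.

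The prolyl hydroxylases EGLN1 and EGLN3 differed in how far knockdown stood from control. EGLN1, the main oxygen sensor that marks the alpha subunits, had 77.1, 77.7, 76.1 and 76.4 CPM in control and 73.0, 75.2, 72.5 and 72.4 CPM in knockdown (ENSG00000135766.9, chromosome 1, 231363751 to 231425044, minus strand). The knockdown libraries were all slightly below the controls, with the nearest of the 2 groups less than 1 CPM apart. The log2 fold change of EGLN1 was -0.07 (SE 0.0146) and turned to 0.02 with scaling by library size only.

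EGLN3 encodes the family member that is most strongly induced by hypoxia in many cells. EGLN3 (ENSG00000129521.15, chromosome 14, 33924231 to 34462774, minus strand) had 122, 135, 136 and 126 counts in control and 12, 11, 12 and 14 counts in knockdown. Every knockdown count was far below every control count. In CPM the mean went from 5.89 ± 0.477 to 0.554 ± 0.0906 (mean ± SD over 4 libraries each), which left 9.40% of the control level, with a log2 fold change of -3.41 (SE 0.131). This was the lowest fold change of the 10.

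Of the secreted factors, VEGFA was lower and ADM higher. VEGFA, the central growth factor for blood vessels, had 69.1, 72.6, 72.3 and 73.6 CPM in control and 37.7, 39.1, 38.6 and 37.6 CPM in knockdown (ENSG00000112715.24, chromosome 6, 43770184 to 43786487, plus strand). The groups were well apart and each was tight. The mean went from 71.9 ± 1.96 to 38.3 ± 0.733 CPM (mean ± SD over 4 libraries each), and its log2 fold change was -0.91 (SE 0.0241).

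ADM encodes adrenomedullin, a peptide that widens blood vessels. ADM (ENSG00000148926.10, chromosome 11, 10304680 to 10307397, plus strand) had 6.04, 5.98, 6.55 and 5.68 CPM in control and 16.7, 16.0, 15.7 and 16.0 CPM in knockdown. All 4 knockdown libraries were above every control by a wide margin, opposite to VEGFA in the same libraries. The mean went from 6.06 ± 0.358 to 16.1 ± 0.428 CPM (mean ± SD over 4 libraries each), and its log2 fold change was 1.41 (SE 0.0462).

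NDRG1 is a stress-responsive gene that is raised by hypoxia and in differentiating epithelium. NDRG1 (ENSG00000104419.17, chromosome 8, 133237171 to 133302022, minus strand) had 228.8, 221.0, 235.7 and 219.3 CPM in control and 45.5, 44.4, 43.0 and 43.7 CPM in knockdown. The knockdown libraries kept 19.5% of the control level with almost no spread. The mean went from 226 ± 7.55 to 44.1 ± 1.05 CPM (mean ± SD over 4 libraries each), and its log2 fold change was -2.36 (SE 0.0294).

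The members with mitochondrial products were BNIP3 and MGARP. BNIP3, a receptor on the outer mitochondrial membrane that directs mitochondria to autophagy, had 52.0, 51.6, 49.6 and 49.8 CPM in control and 50.7, 48.1, 53.0 and 50.7 CPM in knockdown (ENSG00000176171.11, chromosome 10, 131966455 to 131982013, minus strand). It was the only member whose groups overlapped. Its means were 50.8 CPM ± 1.23 and 50.6 CPM ± 2.01 (mean ± SD over 4 libraries each), with a log2 fold change of -0.01 (SE 0.0337). Its promoter window is the one with 6 hypoxia response core matches.

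MGARP encodes a mitochondrial protein that has been linked to hypoxia and to the transport of mitochondria. MGARP (ENSG00000137463.5, chromosome 4, 139266163 to 139280338, minus strand) had 2, 1, 0 and 1 counts across the controls (replicates 1 to 4) and 1893, 1898, 1647 and 1812 counts across the knockdowns in the same order. It was at the floor of detection in every control library and among the better expressed members in every knockdown library. Its knockdown mean of 81.4 ± 2.96 CPM (SD over 4 libraries) was at least 572-fold higher than the level of 3 counts in the control library with the highest floor, 0.142 CPM. These floors cover counting error only, and the fitted log2 fold change of 10.64 depends on the prior count. In all, 431 tested genes had 3 or fewer counts in every control library, and 6 of them, MGARP included, reached its knockdown level or more. Genes this low in control pass the filter only through their knockdown counts, so these numbers are descriptions only. In the other direction, 198 tested genes had 3 or fewer counts in every knockdown library.

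The coding genes around MGARP showed no such difference. MGARP shares 360 of its 1339 exonic bases with NDUFC1, a subunit gene of respiratory complex I on the same strand, so reads from that stretch cannot be assigned with certainty and the level of MGARP is uncertain to that extent. NDUFC1 averaged 55.8 ± 1.59 CPM (control) and 49.5 ± 2.70 CPM (knockdown) (mean ± SD over 4 libraries each; log2 fold change -0.18, or -0.09 and not past the test with scaling by library size only). The next tested coding genes on either side, NAA15, ELF2 and NOCT, singled out after their values were seen, had log2 fold changes of -0.21, -0.23 and 0.04. Over the 8 libraries, the tested genes nearest to MGARP in level, by Euclidean distance of log2(CPM + 0.5), were EDNRB (distance 0.616), SCD5 (1.05) and PTPRM (1.06). EDNRB was limited to 1 count or fewer per control library and had 1316 to 1717 counts in knockdown.

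ANKRD37 encodes a small ankyrin-repeat protein and is a direct target in several cell types. ANKRD37 (ENSG00000186352.9, chromosome 4, 185396021 to 185400628, plus strand) had 36, 29, 34 and 39 counts in control and 17, 16, 13 and 10 counts in knockdown. The groups did not overlap, but the counts were low and their spread was the widest of the members other than MGARP. In CPM the mean went from 1.56 ± 0.168 to 0.625 ± 0.113 (mean ± SD over 4 libraries each), and its log2 fold change was -1.31 (SE 0.158). ANKRD37 shares 909 of its 2580 exonic bases with UFSP2 on the opposite strand. UFSP2 went from 19.04 ± 0.795 to 13.1 ± 0.568 CPM (mean ± SD over 4 libraries each), and the use of strand in counting is not given in the sources used here, so the level of ANKRD37 is uncertain.

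To set the members beside their surroundings on the chromosome, each was set against the median log2 fold change of its 50 nearest tested coding genes. Those medians ran from -0.36 around MGARP to 0.26 around BNIP3. Taken off, they left EPAS1 at -1.44, VEGFA at -1.06, NDRG1 at -2.34, EGLN3 at -3.20, ANKRD37 at -1.24 and HIF1A at -0.35 on the log2 scale. ADM stood at 1.55 and MGARP at 11.004 after the same step. The nearly level members moved most in proportion, EGLN1 to -0.28 and BNIP3 to -0.27. The sign of each of the 10 stayed as it was. The nearest genes, named here after their values were seen, could differ from these medians. Beside EPAS1, log2 fold changes were -0.820 for PRKCE, -0.185 for SRBD1, -0.704 for ATP6V1E2 and -1.13 for RHOQ. Beside ADM, they were 1.498 for AMPD3, -0.00874 for RNF141, -0.703 for SBF2 and -0.608 for SWAP70. Beside NDRG1, they were -5.51 for ST3GAL1, 0.0228 for ZFAT, -0.732 for PHF20L1 and 0.676 for HHLA1. Whether members changed with their nearest genes was not tested.

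**Figure D4:**
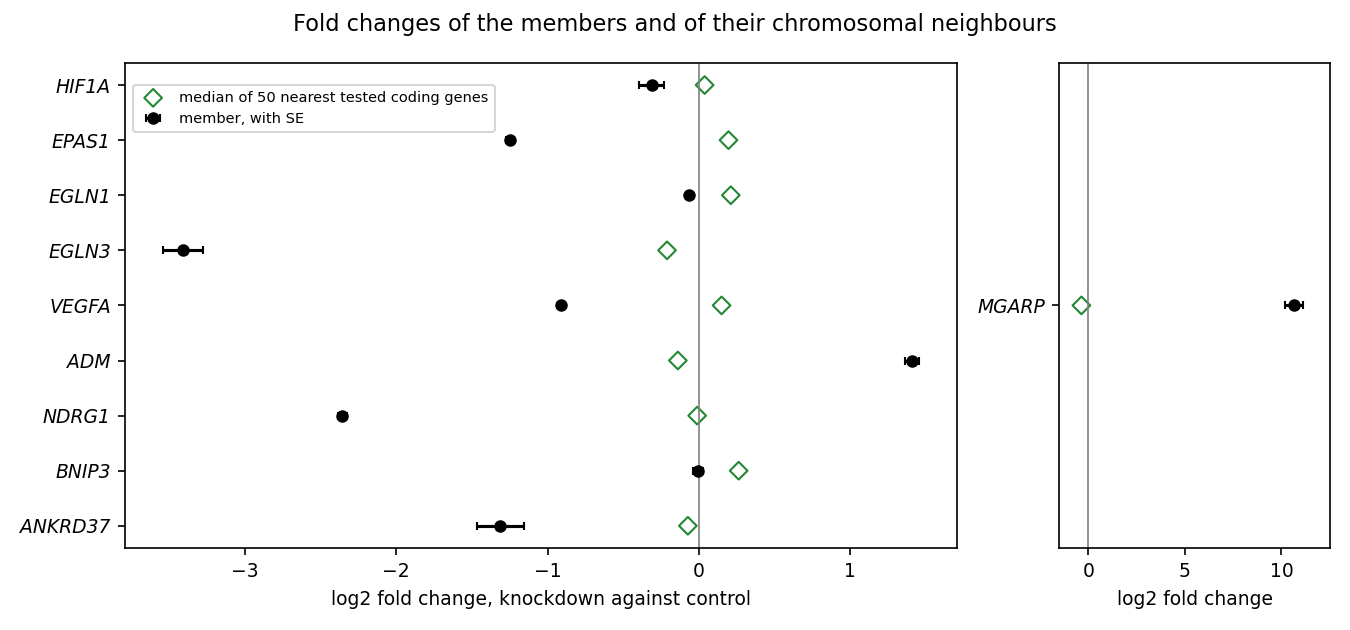
Log2 fold change of knockdown against control for each member (black points, bars are the SE) beside the median of its 50 nearest tested coding genes (green diamonds); MGARP has an axis of its own, and its fitted value depends on the prior count. The neighbour medians lie between -0.36 and 0.26, while EGLN3 lies at -3.41, NDRG1 at -2.36 and ADM at 1.41.

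The order of the members by level per length was rearranged between the groups. Per kb of merged exon, control levels were 59.8 ± 0.806 CPM for EPAS1, 24.5 ± 2.33 for HIF1A, 23.0 ± 0.769 for NDRG1, 10.6 ± 0.0977 for EGLN1 and 9.53 ± 0.231 for BNIP3 (SD over 4 libraries). HIF1A and NDRG1 did not differ beyond their spread in that order. VEGFA followed at 4.98 ± 0.136, ADM at 2.23 ± 0.132, EGLN3 at 0.801 ± 0.0648, ANKRD37 at 0.606 ± 0.0650 and MGARP at 0.0336 ± 0.0279 CPM per kb. In knockdown MGARP led at 60.8 ± 2.21 CPM per kb, ahead of EPAS1 at 25.2 ± 0.912 and HIF1A at 19.7 ± 0.961 (mean ± SD over 4 libraries each), and EGLN3 was last at 0.0753 ± 0.0123. Between them lay EGLN1 at 10.1 ± 0.183, BNIP3 at 9.50 ± 0.378, ADM at 5.92 ± 0.158, NDRG1 at 4.49 ± 0.107, VEGFA at 2.65 ± 0.0508 and ANKRD37 at 0.242 ± 0.0436 CPM per kb. EGLN1 and BNIP3 were close there, with EGLN1 the higher. With the longest coding transcript as the length, NDRG1 came before HIF1A in control, at 60.2 ± 2.01 against 31.8 ± 3.03 CPM per kb (mean ± SD over 4 libraries each), and VEGFA moved from rank 6 to 4. In knockdown the same change of length turned the order of ADM, NDRG1 and VEGFA, to 11.8 CPM per kb for NDRG1, 10.8 for VEGFA, 10.3 for EGLN1 and 8.51 for ADM, with BNIP3 above them at 16.5.

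Of the partners of the alpha subunits and the oxygen-sensing machinery, most that changed rose. The list held 16 genes other than the members, of which 15 were tested, and 11 rose, 1 fell and 3 did not pass the test (median log2 fold change 0.30, against 0.02 for all genes tested; 39.4% of those were called higher). ARNT, the shared partner of both alpha subunits, rose from 51.7 ± 2.19 to 74.7 ± 1.33 CPM (mean ± SD over 4 libraries each; log2 fold change 0.53, edgeR adjusted p 2.42e-11). VHL, the recognition subunit of the ubiquitin ligase, rose from 49.9 ± 2.36 to 76.2 ± 1.07 CPM (mean ± SD over 4 libraries each; log2 fold change 0.61, edgeR adjusted p 1.81e-12). RBX1, the RING subunit of the same ligase, rose by a log2 fold change of 0.60 (edgeR adjusted p 2.15e-12), while ELOC, which links VHL to the complex, fell by 0.31 on the log2 scale (edgeR adjusted p 2.38e-08). SIAH2, a ligase that destabilises EGLN proteins, rose from 18.1 ± 0.930 to 37.6 ± 1.28 CPM (mean ± SD over 4 libraries each; edgeR adjusted p 2.17e-15). RBX1, ELOC and SIAH2 were singled out after their values were seen. The lists themselves were chosen with earlier results of these data known. The p-values of list genes are therefore descriptions only, throughout the text.

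Hydroxylases and HIF subunits outside the members were tested as well. EGLN2, the remaining member of the family, had 73.7 ± 4.05 CPM (control) and 70.9 ± 2.38 CPM (knockdown) (mean ± SD over 4 libraries each; log2 fold change -0.05, edgeR adjusted p 0.268). HIF1AN, which hydroxylates an asparagine of the alpha subunits, had 45.2 ± 1.64 and 43.0 ± 1.42 CPM in the same order (mean ± SD over 4 libraries each; edgeR adjusted p 0.153). The sign of both turned positive when libraries were scaled by size only. P4HTM, a membrane-bound prolyl hydroxylase, rose from 24.7 ± 0.945 to 35.3 ± 1.39 CPM (mean ± SD over 4 libraries each; edgeR adjusted p 1.45e-09). ARNT2, a paralogue of ARNT, was scarce and rose from 0.362 ± 0.110 to 0.758 ± 0.199 CPM (mean ± SD over 4 libraries each; edgeR adjusted p 0.00358). HIF3A had 4 to 9 counts in control libraries and 9 to 19 in knockdown libraries, below the filter.

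Genes of a wider list of 42 hypoxia targets moved in both directions. This list shares CITED2 with the oxygen-sensing list and BNIP3L with the list of relatives below. Of 39 tested, 17 rose, 15 fell and 7 did not pass the test, a share called of 82.1% beside 77.1% of all genes tested, with a median log2 fold change of 0.03 against 0.02. Of the rises, PLOD1 only just passed (log2 fold change 0.09, edgeR adjusted p 0.0493), and its groups overlapped. The number of rises was 16 with RLE scaling, DESeq2, limma voom or a replicate block, and 20 with scaling by library size only. The genes named from here to the end of the next paragraph, apart from CA9, were picked for large changes that passed the test. Their p-values are therefore descriptions only. DDIT4, an inhibitor of mTOR signalling, fell most, from 184 ± 4.47 to 11.4 ± 0.129 CPM (mean ± SD over 4 libraries each; log2 fold change -4.01, edgeR adjusted p 5.33e-29). PLOD2, a collagen lysyl hydroxylase, fell from 71.6 ± 6.90 to 17.7 ± 1.03 CPM (mean ± SD over 4 libraries each). BHLHE40, a transcriptional repressor, fell by 1.69 and the small GTPase gene RAB20 by 1.64 on the log2 scale. CA9, a carbonic anhydrase widely used as a hypoxia marker, had 6 to 10 counts in control libraries and 0 in every knockdown library, below the filter. With 0 counts, a level of up to 0.153 CPM remains possible in the knockdown library of lowest depth.

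Among the rises of the wider list, STC2, which encodes the secreted glycoprotein stanniocalcin-2, was limited to 1 count or fewer per control library and reached 31.6 ± 1.03 CPM (SD over 4 knockdown libraries), which is at least 222-fold higher than 3 counts in the control library with the highest floor. VLDLR, a lipoprotein receptor, rose from 0.580 ± 0.0872 to 10.5 ± 0.432 CPM (mean ± SD over 4 libraries each; edgeR adjusted p 1.61e-19). BHLHE41, the paralogue of BHLHE40, rose while BHLHE40 fell, with a log2 fold change of 3.301 (SE 0.215, edgeR adjusted p 1.79e-15). ERO1A, an oxidase of the endoplasmic reticulum, rose from 28.5 ± 0.698 to 72.1 ± 1.62 CPM (mean ± SD over 4 libraries each).

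Glycolytic targets were divided as well. Of 20 tested genes, 8 rose, 10 fell and 2 did not pass the test (median log2 fold change -0.08), where 39.4% of all genes tested were called higher and 37.7% lower. The glycolytic genes named were picked in the same way, so their p-values are descriptions only. The glucose transporters went in opposite directions: SLC2A1 fell from 485 ± 14.3 to 112 ± 1.93 CPM (edgeR adjusted p 9.16e-26), and SLC2A3 rose from 0.965 ± 0.210 to 304 ± 3.35 CPM (edgeR adjusted p 1.71e-31; mean ± SD over 4 libraries each). PFKP, a phosphofructokinase, rose by a log2 fold change of 1.62, and PDK3, a kinase that restrains pyruvate dehydrogenase, fell by 1.00 on the log2 scale. Smaller changes followed: ALDOC fell by 0.58 and PKM by 0.54 on the log2 scale, and PGAM1 and TPI1 rose by 0.39 and 0.37.

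**Figure D5:**
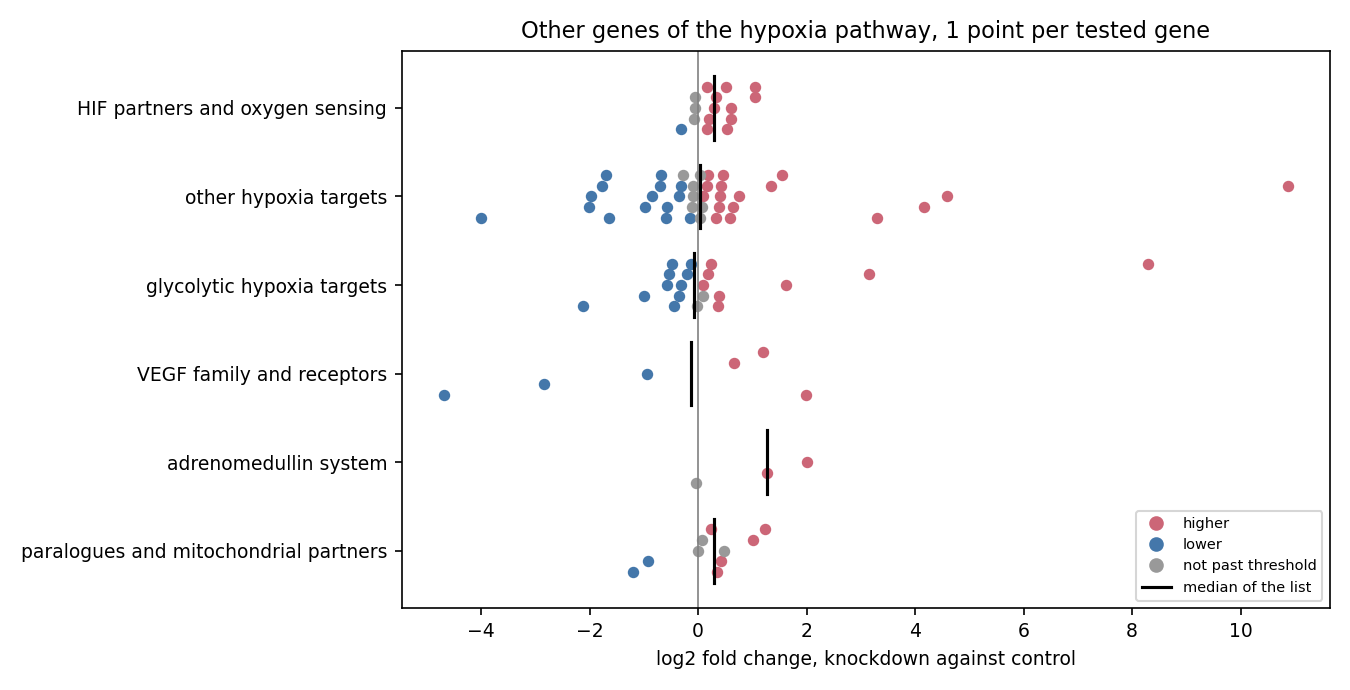
Log2 fold change of knockdown against control for tested genes of 6 lists that exclude the members, 1 point per gene in each list, coloured by the edgeR call at an adjusted p under 0.05, with the median of each list as a black line. CITED2 and BNIP3L are each in more than 1 list. Points of the oxygen-sensing list lie mostly right of 0, with 11 of 15 higher, while the wider targets spread to both sides, with 17 of 39 higher and 15 lower.

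Relatives of the secreted members were set beside them. VEGFB, a related growth factor, fell from 75.6 ± 7.77 to 39.5 ± 2.28 CPM, and VEGFC, which acts on lymphatic vessels, fell from 4.46 ± 0.433 to 0.169 ± 0.110 CPM (mean ± SD over 4 libraries each; edgeR adjusted p 3.03e-09 and 6.63e-15). PGF, the placental growth factor gene, rose from 1.58 ± 0.385 to 3.62 ± 0.205 CPM (mean ± SD over 4 libraries each; edgeR adjusted p 3.38e-07). Of the receptors, NRP1 fell by 2.84 on the log2 scale, and NRP2 and FLT4 rose by 0.66 and 1.99. FLT4 was scarce, with 4 to 7 counts in control libraries and 16 to 21 in knockdown libraries, and KDR and FLT1 had at most 10 counts in any library. In the adrenomedullin system PAM, the enzyme that amidates the peptide, rose from 6.90 ± 0.675 to 27.8 ± 1.35 CPM (mean ± SD over 4 libraries each; edgeR adjusted p 1.68e-18). ADM5 rose from 0.422 ± 0.207 to 1.03 ± 0.200 CPM (mean ± SD over 4 libraries each), ADM2 had a log2 fold change of -0.04 (edgeR adjusted p 0.776), and the receptor genes CALCRL and CALCR had at most 4 counts in any library.

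Relatives of NDRG1 and BNIP3 followed no single course. NDRG3 fell from 241 ± 10.2 to 128 ± 5.75 CPM, NDRG4 rose from 2.13 ± 0.239 to 4.27 ± 0.562 CPM (mean ± SD over 4 libraries each), and NDRG2 had a log2 fold change of 0.48 (edgeR adjusted p 0.111), which passed the test at 0.80 without control replicate 2. BNIP3L, the close relative of BNIP3 in mitochondrial autophagy, rose from 9.75 ± 0.411 to 13.2 ± 0.563 CPM (mean ± SD over 4 libraries each; edgeR adjusted p 7.23e-06). PINK1, a kinase that marks damaged mitochondria, fell from 46.2 ± 1.61 to 20.2 ± 1.46 CPM (mean ± SD over 4 libraries each; edgeR adjusted p 2.39e-16). TRAK1, an adaptor that moves mitochondria along microtubules, rose from 21.6 ± 0.657 to 50.8 ± 1.01 CPM (mean ± SD over 4 libraries each; edgeR adjusted p 7.1e-18). Its paralogue TRAK2 rose by a log2 fold change of 0.23, and RHOT2, a GTPase that anchors such adaptors to mitochondria, rose by 0.35. RHOT1 (0.08) and FUNDC1 (-0.00078), a mitochondrial autophagy receptor, did not pass the test.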

How the data were processed

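RNA of 8 libraries was sequenced on an Illumina NextSeq as paired-end reads after a standard mRNA protocol, per the labels' protocols. The authors deposited whole-number counts per gene for versioned Ensembl identifiers. Per the submitters' processing notes the build was hg38, and FastQC, Salmon 1.9 and DESeq2 3.16 are named with no role. Salmon estimates counts from transcripts. How estimates became whole gene counts, the annotation and the use of strand are not given in the sources used here. Members, lists and alternatives were chosen with earlier results of these data known.

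The table of 30434 genes was analysed in R 4.3.3 with edgeR 4.0.16: filterByExpr (minimum 10 counts, total 15), which left 16430 genes, TMM scaling, and the robust quasi-likelihood test, its p-values adjusted by Benjamini-Hochberg across the 16430 genes. CPM used TMM-scaled totals. SEs came from log2 CPM with 0.5 added to each count. A fold against a group with 3 or fewer counts in every library is a bound against 3 counts. Positions came from GENCODE 29, which matched 96.5% of identifiers. Named genes were the members, tested genes of the lists of their relatives and partners, and the 4 largest rises and falls per target list that passed 0.05 after adjustment, averaged 50 counts or more and had separate groups. ELOC, RBX1, SIAH2, PLOD1 and genes beside members were added after their values were seen. As alternatives, libraries were scaled by RLE, by upper quartile or by size alone, and the filter was dropped or raised. Others were DESeq2 1.42.0, limma voom (3.58.1), a replicate block, a stricter threshold, a regional offset and leaving out each library. The edgeR test was also run on simulated counts of 16130 genes with a single common dispersion. Of these, 96 genes were changed by 1 and 96 by 2 on the log2 scale. It recovered 90 and 96 of them in the right direction, with 10 false calls. With so few changed genes, the simulation does not check scaling or test where 77.1% of genes are called.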

Additional observations from a re-analysis of the deposited data

Results flagged for a closer look

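In each group of 4 libraries a library was singled out when its gap to the nearest other, divided by the range of the group, passed Dixon's 95% critical value. The rule was applied to 120 groups of CPM values, of the members and many other named genes but no cell type markers. In all, 12 libraries were singled out where chance gives about 6, and no member was among them. That chance figure assumes continuous values, and a single count beside 0 elsewhere is always singled out. In control, PLOD2 (61.3 CPM against 74.0 to 75.9) and NAA15 (113.6 against 128.0 to 130.8) were low in replicate 3, FLT4 was high in replicate 2 (0.317 against 0.172 to 0.190), and STC2 and EDNRB each had a single count in replicate 4 (0.0430 CPM) and 0 elsewhere. In knockdown, VHL was low in replicate 1 (74.7 against 76.7 to 77.0), RBX1 low in replicate 2 (65.3 against 68.8 to 69.5) and EGLN2 low in replicate 3 (67.3 against 72.0 to 72.3). NDRG2 was high in knockdown replicate 3 (1.42 against 0.934 to 0.9703). In knockdown replicate 4, PFKP (179.3 against 169.7 to 171.3) and PGF (3.93 against 3.51 to 3.52) were high and NAA15 was low (99.98 against 110.2 to 111.7).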

How the results depend on the processing

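The count of genes changed in knockdown against control, 12675 as reported, stayed between 10279 and 15028 over 17 alternatives, and members called numbered 7 or 8, since ANKRD37 was not tested when a mean of at least 50 counts was required. As the members were chosen on this contrast, that is a description and no sign of stability. The replicate numbers did not pair the libraries (correlations of same-numbered deviations between -0.0307 and 0.0563), and the fit with a replicate block called 12453 genes. Scaling by library size moved the median log2 fold change of all genes by 0.084, and turned EGLN2 to 0.030, HIF1AN to 0.0105 and ADM2 to 0.046. Upper-quartile scaling turned EGLN2 to 0.00496 and ADM2 to 0.022, and ADM2 was between -0.10 and 0.053 when libraries were left out in turn. None of the 3 passed the test as reported. BNIP3 turned to 0.055 and 0.079 under upper-quartile and library-size scaling, to 0.0092 with a mean of at least 50 counts, and to 0.0034, 0.0016 and 0.021 without control replicate 1, control replicate 2 or knockdown replicate 2. EGLN1 turned to 0.016 under library-size scaling. Low counts limit the precision of MGARP most, with 0 to 2 per control library (SE 0.475). ANKRD37, with 10 to 39 counts per library (SE 0.158), and EGLN3, with 11 to 14 in knockdown (SE 0.131), follow.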
